A study of Homo sapiens with 9 samples.

Results

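The alveolar type 2 lamellar body genes are described here as ChIP-seq peaks in 6 windows of the human genome build hg18, 1 window each for ABCA3, LPCAT1, NAPSA, LAMP3, SLC34A2 and CTSH. The windows were fixed by position, are 120 to 180 kb long and span 880 kb together, and every peak that overlaps one of them by at least 1 bp is a member. They held 62 of the 125904 peaks of 5 lists, or 0.0492%, and took up 0.0291% of the genome. ChIP-seq maps the DNA to which a protein is bound by precipitating it from fixed, sheared chromatin and sequencing the DNA that comes with it. NKX2-1 was precipitated with the Bethyl Laboratories antibody BL4000 from the lung adenocarcinoma cell lines NCI-H3122 (H3122 here, 2 libraries), NCI-H1819 (H1819, 1 library) and NCI-H2087 (H2087, 1 library). FOXA1 was precipitated with the Abcam antibody ab23738 from H3122 only, in 1 library. All 3 lines carry an amplification of NKX2-1 and were grown in the same serum-containing medium, so no line without the amplification stands beside them. The other 4 of the 9 samples were inputs and were not analysed here. The H3122 NKX2-1 libraries are called replicates 1 and 2; nothing says that they came from separate cultures.

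Alveolar type 2 cells make pulmonary surfactant and store it in lamellar bodies, secretory organelles related to lysosomes, from which it is released onto the alveolar surface. NKX2-1 (TTF-1) belongs to the homeodomain transcription factors and is known for activating surfactant genes in these cells, and FOXA1 is a forkhead factor that opens chromatin in endodermal tissues. ABCA3 is the lipid transporter of the lamellar body membrane, and LPCAT1 is an acyltransferase that remodels phosphatidylcholine into the saturated form found in surfactant. NAPSA (napsin A, an aspartic protease) and CTSH (cathepsin H, a cysteine protease) take part in processing the surfactant protein B precursor. LAMP3, or DC-LAMP, is a membrane glycoprotein of lamellar bodies and of mature dendritic cells. SLC34A2 encodes the sodium-phosphate cotransporter NaPi2b of the apical cell membrane, and its loss causes pulmonary alveolar microlithiasis. RNA was not measured in these samples, so the data do not say whether the lines express these genes.

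The sequence of hg18 was not used here, so the letters under the peaks are not shown. RefSeq promoters of the build GRCh38.p14, from 250 bases before the start of a gene to 50 after it, were matched by symbol for 5 of the 6 genes, with 7 promoters; LAMP3 had no entry. The promoters of NAPSA and SLC34A2 that hold a searched motif are shown, because they are the only 2 of the 7 with a match. Motifs were searched on both strands, as CTCAAG (or CTTGAG, the core of NKX2-1 sites), CACTTG (or CAAGTG, an NKX element), and TGTTTAC and TGTTTGC (or GTAAACA and GCAAACA, forkhead motifs of FOXA factors). None of these overlapped another in the promoters shown. Capitals mark the matches, and both sequences are on the strand of the gene, NAPSA at chr19:50369253-50369552 (minus strand) and SLC34A2 at chr4:25656214-25656513 (plus strand) in GRCh38.p14, which are not positions in hg18.
NAPSA: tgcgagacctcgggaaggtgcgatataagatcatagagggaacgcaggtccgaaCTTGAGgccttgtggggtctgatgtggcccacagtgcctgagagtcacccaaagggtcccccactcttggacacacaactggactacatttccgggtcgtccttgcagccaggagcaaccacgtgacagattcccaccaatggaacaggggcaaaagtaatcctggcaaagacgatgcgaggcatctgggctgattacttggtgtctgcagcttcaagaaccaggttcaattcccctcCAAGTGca
SLC34A2: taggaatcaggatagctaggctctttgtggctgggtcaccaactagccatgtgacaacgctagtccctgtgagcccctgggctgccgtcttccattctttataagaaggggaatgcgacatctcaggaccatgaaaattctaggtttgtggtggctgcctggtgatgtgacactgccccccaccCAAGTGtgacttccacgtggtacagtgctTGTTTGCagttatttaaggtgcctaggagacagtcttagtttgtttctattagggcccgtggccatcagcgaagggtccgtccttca

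In the NAPSA promoter the match to the NKX2-1 core spans bases 55 to 60, counted from 1 at the 5′ end, and that to the NKX element spans bases 293 to 298. The SLC34A2 promoter holds the NKX element at bases 185 to 190 and the forkhead letters at bases 214 to 220. The other 5 promoters, 1 each of ABCA3, LPCAT1 and CTSH and a second one each of NAPSA and SLC34A2, held none of the 4 motifs. Among all 35116 promoters in the table, 12.4% held CTCAAG, 11.5% held CACTTG, 3.42% held TGTTTAC and 3.89% held TGTTTGC. These matches are descriptions of letters. Because the builds differ, no peak was placed on a promoter, exon or intron, and the windows also hold neighbouring genes.

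NKX2-1 peaks were found around all 6 genes in 1 list only, H3122 replicate 2, and the lists differed in which windows held one. The windows held 7 peaks of the 7469 in H3122 NKX2-1 replicate 1, 23 of the 48071 in replicate 2, 5 of the 13486 in H1819, 14 of the 14441 in H2087 and 13 of the 42437 FOXA1 peaks in H3122. Replicate 2, the longest list, had a peak in 6 of the 6 windows, and across the genome 73.5% of 150 kb tiles held one. With so few windows this count too is near the background. The share of tiles with a peak in any NKX2-1 list was not counted. Among the 7469 best peaks of replicate 2, those at LPCAT1 and NAPSA alone were left in the windows. Replicate 1 had a peak in 4 windows, with none at SLC34A2 or CTSH, against 28.2% of tiles. H1819 had a peak in 4 windows, with none at ABCA3 or NAPSA, against 37.6% of tiles. H2087 had a peak in 4 windows, with none at LAMP3 or SLC34A2, against 33.1% of tiles. FOXA1 had a peak in 5 windows, all but that of SLC34A2, against 72.0% of tiles, a share near the background. The tiles cover the whole genome outside centromeric and variable bands, gene-poor stretches included, while each window was placed on a gene; the part of gene density in these shares was not tested. Sequencing depth is not given, so the number of peaks cannot be read as an amount of binding, and the absence of a peak says only that the authors' threshold was not reached. With 1 list for each line and antibody apart from the H3122 pair, no test over replicates was run.

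**Figure D1:**
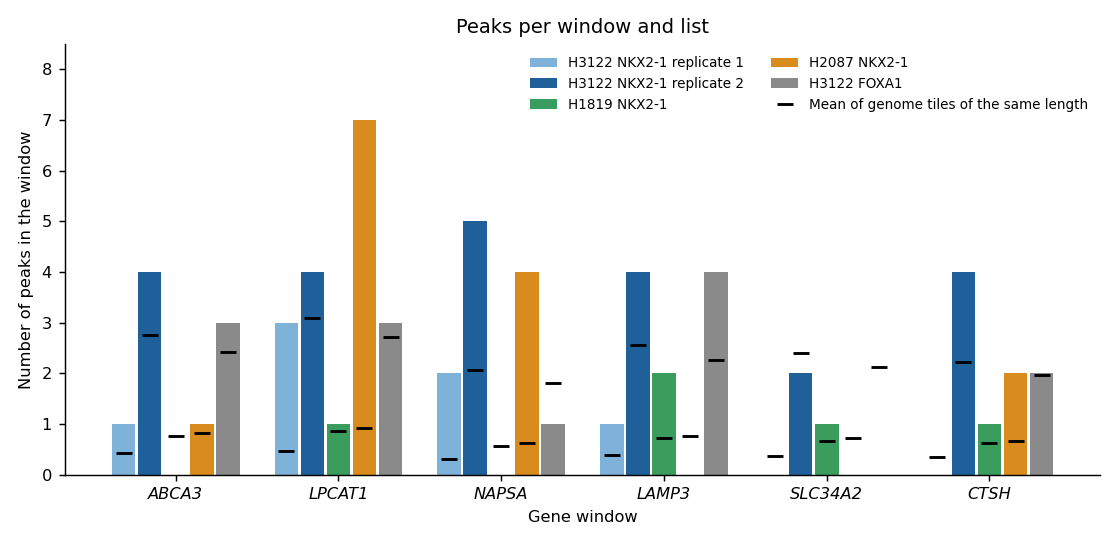
Number of peaks (vertical axis) in each of the 6 gene windows (horizontal axis); the bars are the 5 lists, and the black dashes are the mean number of peaks in genome tiles of the same length in the same list. The LPCAT1 window held 7 H2087 peaks against a tile mean of 0.929, and the SLC34A2 window held no peak in replicate 1, H2087 or FOXA1.

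Peaks of the 4 NKX2-1 lists that overlapped were merged, which gave 32 NKX2-1 regions in the windows among 59685 in the genome. Of the 32 regions, 1 had peaks in all 4 lists, or 3.12%, where the share over all regions was 1.61%. Peaks in all 3 lines, with replicate 2 standing for H3122, were found in 2 regions, or 6.25%, where the share over all regions was 4.59%. With so few regions these shares are near the background. A single list held 23 of the 32 regions, or 71.9%, against 71.8% of all regions, and 14, or 43.8% of the 32, were in replicate 2 alone, against 52.3% of all regions. H2087 alone held 6, or 18.8% against 7.27%, replicate 1 alone 2, or 6.25% against 2.15%, and H1819 alone 1, or 3.12% against 10.0%. The other 9 regions were found in at least 2 lists, of which 4 lay at LPCAT1, 2 at NAPSA, 2 at LAMP3 and 1 at CTSH. Of these, 3 were in 2 lists, or 9.38% of the 32 against 20.1%, and 5 in 3 lists, or 15.6% against 6.52%. The differences from the genome's shares rest on few regions and were not tested. ABCA3 and SLC34A2 had no region in more than 1 list.

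**Figure D2:**
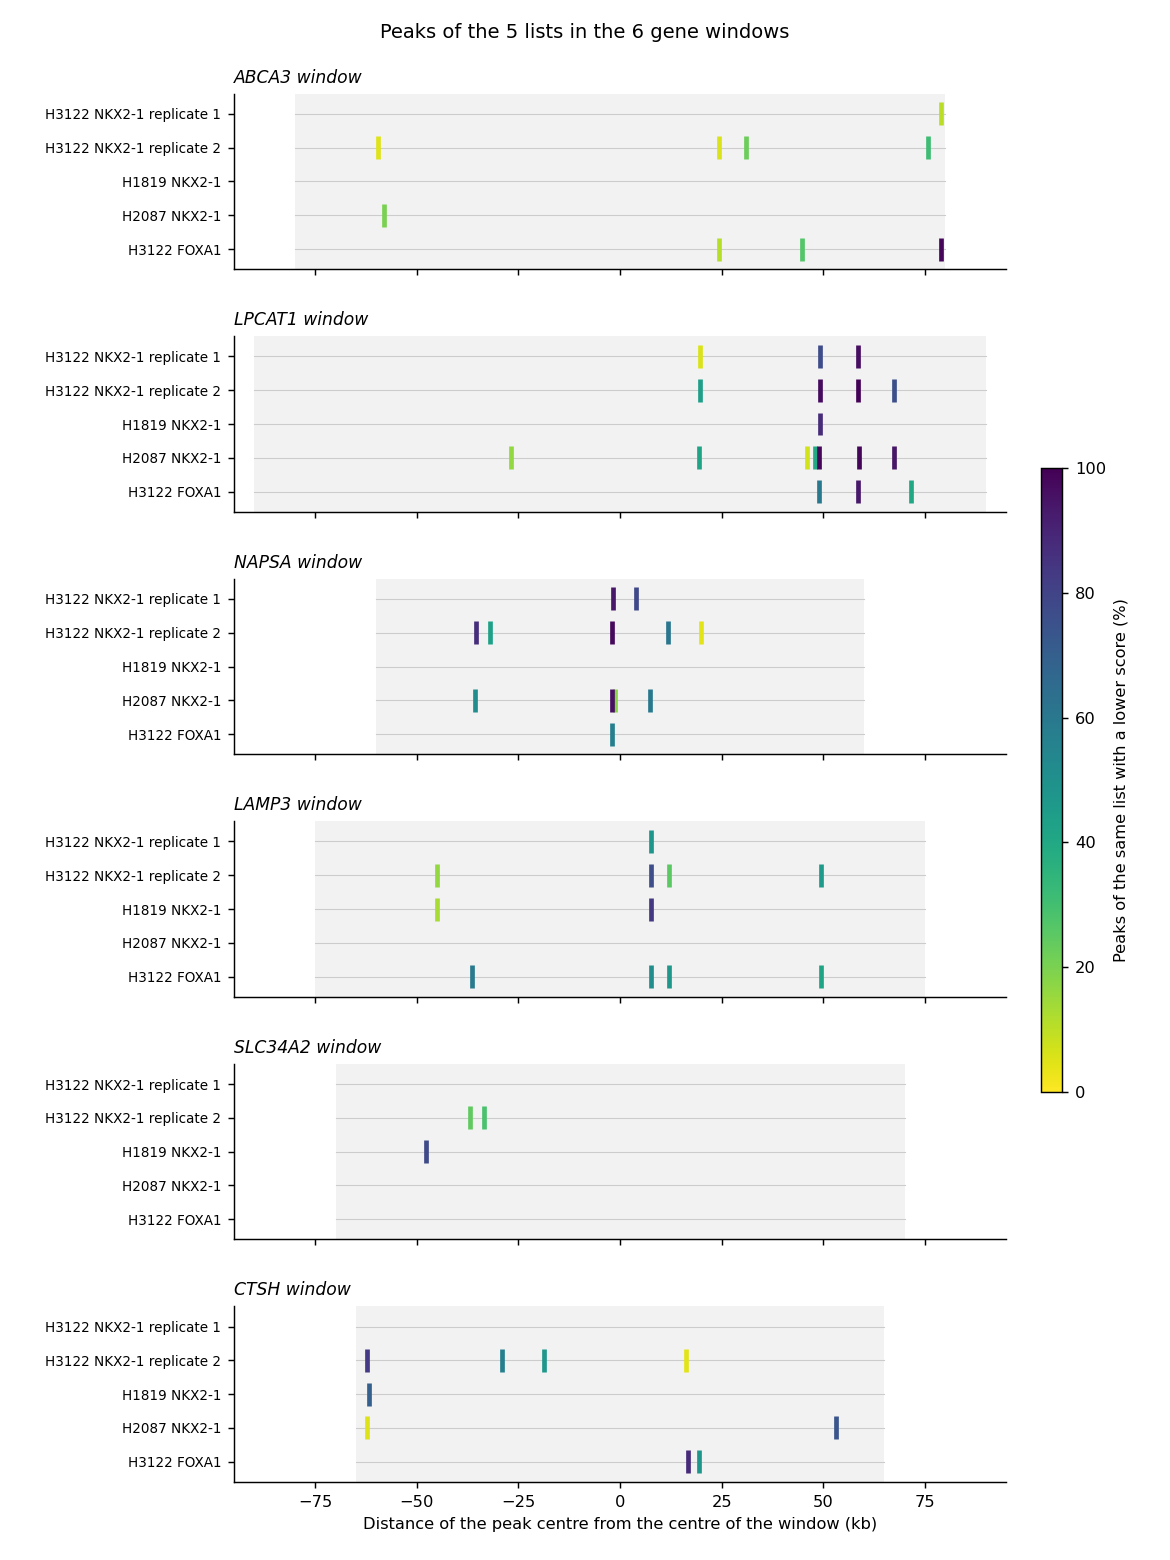
Peaks of the 5 lists (rows) in the 6 gene windows (panels, grey span), placed by the distance of the peak centre from the window centre in kb; bars have a fixed width, and darker colour means that a larger percent of the same list's peaks have a lower score. Dark bars line up across replicates 1 and 2 and H2087 at LPCAT1 and NAPSA, while the NKX2-1 bars at ABCA3 are light.

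Of the enzyme genes, LPCAT1, which makes the saturated phosphatidylcholine of surfactant, had the highest-ranked NKX2-1 peaks of the 6 windows. The window, chromosome 5 from 1460000 to 1640000 in band 5p15.33, held 3 peaks of replicate 1, 4 of replicate 2, 1 of H1819, 7 of H2087 and 3 of FOXA1. The 7 peaks of H2087 stood where tiles of the same length averaged 0.929, and 1.80% of such tiles held at least as many. This was the lowest such share of any window and list. The windows were chosen with earlier results of these data known, so the share is no measure of chance. When each list was limited to its 7469 best peaks, 3 of the 7 were left. In that list the adjoining stretches of equal length on either side held 0 peaks each. For the 3 replicate 1 peaks the share of tiles with as many was 3.46%, but for the 4 of replicate 2 it was 34.8%.

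The 3 leading regions at LPCAT1 lay close together in the upper part of the window, with neighbouring centres 9.7 and 8.7 kb apart. In the region from 1607858 to 1609593 the scores were 211 and 2404 in replicates 1 and 2 and 2213 in H2087, with 881 for FOXA1 and no H1819 peak. A score is the authors' own value for a peak and is used here only for its rank within a list. The peak stood above 96.3% of all peaks in replicate 1, 99.6% in replicate 2, 98.7% in H2087 and 93.7% in FOXA1, so it was high in every list that held it. In H1819 the nearest peak ended 8323 bp before the replicate 2 peak. Among the genome's regions with peaks in both H3122 replicates and H2087, at any rank, 44.9% also had an H1819 peak. Lacking one is thus common in such regions, but the share among regions of so high a rank was not measured.

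The region from 1598348 to 1599760 was the 1 region of the windows with a peak in all 4 NKX2-1 lists, and it had a FOXA1 peak too. Its scores were 103 and 1029 in replicates 1 and 2, 402 in H1819, 1811 in H2087 and 176 for FOXA1. The NKX2-1 peaks stood above 77.1%, 96.9%, 87.8% and 98.1% of their lists in that order, and the FOXA1 peak above 59.6%. Their midpoints lay close together, from 8 bp apart between replicate 2 and H1819 to 120 bp apart between replicate 2 and H2087. Replicate 2 and FOXA1 midpoints lay 130 bp apart. In both H3122 replicates, H2087 and FOXA1 this region scored below the one 9.7 kb further along, while in H1819 it was the only peak of the window.

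A further region, from 1616450 to 1618303, had scores of 278 in replicate 2 and 967 in H2087, above 75.9% and 94.2% of those lists, and no peak in replicate 1, H1819 or FOXA1. The region from 1569178 to 1569902 had scores of 53.5 and 121 in replicates 1 and 2 and 122 in H2087. Its peaks stood above 5.66%, 43.8% and 41.6% of those lists in that order, so only the replicate 1 peak was near the bottom of its own list. That list is the shortest, however. Among the 7469 best peaks of each list, only the replicate 1 peak was left in this region, because that list was kept whole. H2087 alone had 3 more peaks, with scores of 73.3, 64.9 and 117; the last ended 238 bp before the region common to all lists. FOXA1 had 1 peak away from NKX2-1, from 1621347 to 1621856, with a score of 112.

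NAPSA, the aspartic protease, had 1 leading region in the middle of its window, on chromosome 19 from 55500000 to 55620000 in band 19q13.33. The region from 55557488 to 55558772 scored 177 and 1108 in replicates 1 and 2, 1214 in H2087 and 164 for FOXA1, and H1819 had no peak there. It stood above 93.8% of replicate 1 peaks, 97.3% of replicate 2 peaks, 95.9% of H2087 peaks and 57.1% of FOXA1 peaks, so NKX2-1 ranked high where FOXA1 stood near the middle of its list. The midpoint of the replicate 2 peak lay 111 bp from that of H2087 and 64 bp from that of FOXA1. The H1819 peak nearest to the H2087 peak was 147874 bp away, outside the window, and scored 66.1. A second H2087 peak, with a score of 75.1, began 23 bp after the main one and was merged into the same region through the replicate 2 peak.

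Around it the lists diverged. The window held 2 peaks of replicate 1, 5 of replicate 2, 0 of H1819, 4 of H2087 and 1 of FOXA1, and 13.5% of tiles of that length held at least 5 replicate 2 peaks, 6.14% at least 2 replicate 1 peaks and 4.40% at least 4 H2087 peaks. A region from 55524027 to 55525086 was shared by replicate 2, with a score of 449, and H2087, with 153. Replicate 1 had a further peak from 55563678 to 55564002 with a score of 105, above 78.3% of its list, that was absent from the longer replicate 2 list, whose nearest peak was 5050 bp away. H2087 alone had a peak at 55567015 with a score of 193, and replicate 2 alone had peaks with scores of 119, 177 and 63.5.

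CTSH, the cysteine protease, had NKX2-1 peaks spread over its window, none of them above more than 82.8% of its list, on chromosome 15 from 76950000 to 77080000 in band 15q25.1. Here 0 peaks of replicate 1, 4 of replicate 2, 1 of H1819, 2 of H2087 and 2 of FOXA1 were found. The region from 76952079 to 76953449, near the lower edge of the window, was the second with peaks in all 3 lines, with scores of 365 in replicate 2, 202 in H1819 and 63.4 in H2087. It stood above 82.8% of replicate 2, 70.3% of H1819 and just 5.31% of H2087 peaks, so it was near the bottom of the H2087 list. The H1819 and H2087 peaks did not overlap each other: a gap of 101 bp lay between them, and only the wide replicate 2 peak joined them. FOXA1 had no peak in that region. Its highest peak of the window, from 77031390 to 77031793, scored 562, above 87.9% of its list, and overlapped a replicate 2 NKX2-1 peak that scored 63.5, above 4.47%. The other FOXA1 peak, with a score of 131, lay 2451 bp from that NKX2-1 peak. The highest H2087 peak of the window, from 77067744 to 77068610 with a score of 296, had no partner in any other list. Replicate 2 alone had a further 2 peaks in the middle of the window, with scores of 162 and 129.

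LAMP3, the membrane glycoprotein of lamellar bodies, had 2 H1819 peaks and 0 H2087 peaks in its window, and 17.2% of tiles of that length held at least 2 H1819 peaks. With the 7469 best peaks of each list, or at scores of at least 100, 1 of the 2 was left. The window lies on chromosome 3 from 184270000 to 184420000 in band 3q27.1, and held 1 peak of replicate 1, 4 of replicate 2 and 4 of FOXA1. The leading region, from 184352266 to 184353078, had scores of 71.6 and 284 in replicates 1 and 2, 325 in H1819 and 142 for FOXA1. Those peaks stood above 47.3%, 76.5%, 83.8% and 51.0% of their lists in that order, so the region ranked highest in H1819. Midpoints of the H1819 and FOXA1 peaks were 16 bp apart, and those of replicate 2 and FOXA1 37 bp. The nearest H2087 peak was 122645 bp from the H1819 peak and scored 71.9. Of the genome's regions with peaks in both H3122 replicates and H1819, at any rank, 51.1% also had one in H2087. A region without it is thus again common.

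Of the 4 FOXA1 peaks at LAMP3, 3 lay on a replicate 2 peak, and the scores of these pairs were 142 with 284, 131 with 86.85 and 115 with 125, the FOXA1 value first. The fourth, from 184308200 to 184308932, was the highest FOXA1 peak of the window at 173 and lay 7794 bp from the nearest replicate 2 peak. A weak region from 184299624 to 184300405 was shared by replicate 2, with 75.0, and H1819, with 68.7, which stood above 16.2% and 13.0% of their lists. The 150 kb to the right of the window held 6 replicate 2 peaks, and the 150 kb to its left held 0.

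**Figure D3:**
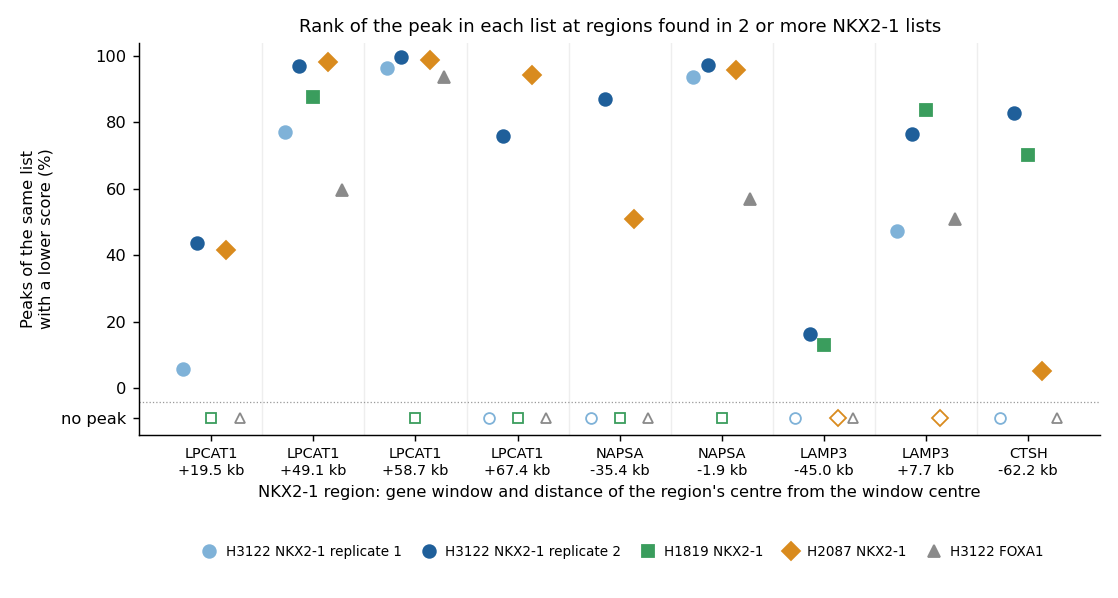
Percent of the same list's peaks with a lower score (vertical axis) at the 9 NKX2-1 regions found in 2 or more NKX2-1 lists (horizontal axis, by gene window and distance from the window centre in kb); open symbols below the dotted line mark lists with no peak. At LPCAT1 +58.7 kb and NAPSA -1.9 kb the 3 NKX2-1 lists with a peak stand at 93.8% or higher, and H1819 has a peak at LPCAT1 +49.1 kb, at both LAMP3 regions and at CTSH.

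Of the 2 transporter genes, ABCA3 had NKX2-1 peaks of low rank in every list that had any. Its window, on chromosome 16 from 2220000 to 2380000 in band 16p13.3, held 1 peak of replicate 1, 4 of replicate 2, 0 of H1819, 1 of H2087 and 3 of FOXA1. Scores were 55.7 in replicate 1, 63.8, 64.3, 82.6 and 95.5 in replicate 2, and 78.0 in H2087; the highest stood above 31.1% of its list, so all 6 lay in the lower part of their lists. No NKX2-1 peak overlapped one of another list, and the closest pair, a replicate 2 and an H2087 peak near the lower end, was 931 bp apart. FOXA1, by contrast, had its highest-ranked peak of all 6 windows here, from 2378705 to 2379326 at the upper edge of the window, with a score of 1790.03, above 98.4% of its list. The single replicate 1 peak, from 2378757 to 2379110, lay inside it, while replicate 2 had no peak there. A FOXA1 peak with a score of 69.0 overlapped the replicate 2 peak of 64.3 from 2324084 to 2324514, and the remaining one, with a score of 86.7, stood alone.

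SLC34A2, the phosphate cotransporter, had the fewest peaks: 0 in replicate 1, 2 in replicate 2, 1 in H1819, 0 in H2087 and 0 in FOXA1, in a window on chromosome 4 from 25210000 to 25350000 in band 4p15.2. The H1819 peak, from 25231839 to 25232403, scored 255 and stood above 77.7% of its list. The replicate 2 peaks scored 85.8 and 92.2, above 24.4% and 28.8% of theirs, and the nearer one lay 10342 bp from the H1819 peak. All 3 were thus found in 1 list only. Tiles of this length held at least 2 replicate 2 peaks in 52.5% of cases and averaged 2.40, so the window was not rich in peaks of the longest list. The stretch of equal length to its left held 5 replicate 2, 5 H1819 and 4 FOXA1 peaks.

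FOXA1 lay on 8 of the 23 replicate 2 NKX2-1 peaks of the windows, or 34.8% (95% Wilson interval 18.8 to 55.1), where the share over the whole list was 47.8%. It lay on 5 of the 7 replicate 1 peaks, or 71.4% (35.9 to 91.8), where the share over that list was 50.3%. The intervals cover counting error only and both include the share of the list. Seen from FOXA1, 9 of the 13 peaks of the windows overlapped an H3122 NKX2-1 peak of either replicate, or 69.2% (42.4 to 87.3), where the share over all FOXA1 peaks was 54.7%. These pairs fell at LAMP3, LPCAT1, ABCA3, NAPSA and CTSH. FOXA1 was mapped in H3122 only, so its presence under the H1819 and H2087 peaks of those cells was not measured.

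The H3122 replicates shared 5 of the 7 replicate 1 peaks in the windows, or 71.4% (35.9 to 91.8), where 81.7% were shared over the whole list. These were 3 peaks at LPCAT1, 1 at NAPSA and 1 at LAMP3. The 2 that were not shared were the second NAPSA peak and the ABCA3 peak on the strong FOXA1 peak. Of the 14 H2087 peaks, 8 lay on a replicate 2 peak, or 57.1% (32.6 to 78.6), where the share over the whole list was 67.7%. Of the 5 H1819 peaks, 4 did, or 80.0% (37.6 to 96.4), where the share over that list was 53.4%. H1819 and H2087 shared 1 place in the windows by direct overlap, the LPCAT1 region common to all lists. It is 1 of the 5 H1819 peaks (interval of the share 3.62% to 62.4%), where 22.8% of the H1819 list lay on an H2087 peak. It is 1 of the 14 H2087 peaks, or 7.14% (1.27 to 31.5), where 21.0% of the H2087 list lay on an H1819 peak. All of these intervals include the share of the list.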

How the data were processed

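Per the submitters' processing notes, the authors aligned reads with Bowtie to hg18 and called peaks with MACS 1.4.0; each deposited list belongs to 1 library, per the labels. The deposited score of each peak was taken to be the negative log10 of its p, multiplied by 10, because the lowest values lie at 50 (a p of 1e-05) in H3122 NKX2-1 replicate 1 and at 60 (1e-06) elsewhere; no header or label gives this scale, the thresholds, the control libraries or the depth. Replicate 1 thus kept peaks down to a lower score than the other lists. With the depth unknown, a lower score cannot be read as weaker binding.

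From these files, peaks overlapping a window by 1 bp were counted, NKX2-1 peaks were merged at 1 bp, and scores were ranked within lists. Positions are 1-based. Complete tiles of the genome, without chromosome Y and without bands of centromeric, variable or stalk stain, came from circlize 0.4.16 in R 4.3.3. Python 3.11.15 and scipy 1.17.1 did the rest, and overlaps were checked on made-up lists with known sharing. No significance test was run. All 6 genes were named, with each region in all 4 NKX2-1 lists or all 3 lines, the highest peak of each list in each window and the highest FOXA1 peak without H3122 NKX2-1; further regions were named after their values were seen. The windows and genes were chosen with earlier results of these data known. Alternatives changed score threshold, list length, window rule, overlap, window size, tile length and H3122 replicate. Sequences are from RefSeq, GRCh38.p14.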

Additional observations from a re-analysis of the deposited data

How the results depend on the processing

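Of 47 alternative values for the counts and shares over all windows, 32 stayed within 1.5 times the value, or within its interval, and 15 moved. Of 166 values for single windows 75 moved. Among the 120 peak counts 30 moved, 15 of them with lists of equal length. Of the 46 tile shares with another tile length 45 were counted as moved, but without the margin of 1.5 times. Small changes were thus counted too, such as 30.5% to 29.4% for replicate 2 at ABCA3 with 200 kb tiles. At scores of at least 100 the windows held 18 NKX2-1 regions in place of 32, with 4 and 13 peaks in the H3122 replicates and 9 in H2087, and 1 region in all 3 lines; no NKX2-1 region was left at ABCA3. With the 7469 best peaks of each list there were 13 regions, 1 of them in all 3 lines. The windows then held 4 replicate 2 peaks, 7 H2087 peaks and 3 FOXA1 peaks. Replicate 2 had 2 peaks each at LPCAT1 and NAPSA and 0 at the other genes. At ABCA3 the replicate 1 peak was left, because that list was kept whole. Under both settings the CTSH region lost its H2087 peak. With lists of equal length it lost its replicate 2 peak too, and H1819 alone was left there. The LPCAT1 region in all 4 lists was found again under both settings. Extending the windows by 50 kb gave 20 FOXA1 peaks in place of 13. Without either H3122 replicate in turn, the windows held 20 to 30 regions, 1 to 2 in all 3 lines and 1 to 2 in all NKX2-1 lists used, the lower value of each without replicate 2. With replicate 1 in place of replicate 2, 71.4% of the H3122 peaks lay on FOXA1 in place of 34.8%. Stricter scores and equal lengths leave fewer peaks, and longer windows hold more; other causes were not tested. The H2087 peaks at LPCAT1 were matched in density by 3.22% of 100 kb tiles and 1.49% of 200 kb tiles, in place of 1.80%. No test was run, and no paired analysis was possible because the NKX2-1 lines have 1 list each apart from H3122. Unknown depth limits every statement about a missing peak.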
